A study of Rhamphochromis sp. 'chilingali' and Astatotilapia calliptera with 50 samples.

Results

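The gene chsy1 (ENSACLG00000000018) encodes a chondroitin sulfate synthase and was followed through somitogenesis in 2 cichlid fishes of the Lake Malawi radiation. It is 1 of the 28001 entries of the gene table. It was chosen by the measured RC minus AC difference, which changes from stage to stage, so the values of that difference are given as a description and carry no test. RNA was sequenced from single whole embryos of wild-type, tank-reared Astatotilapia calliptera "Mbaka" (AC, 24 embryos) and Rhamphochromis sp. "chilingali" (RC, 26 embryos), which received no experimental agent. After collection the eggs of both species were kept in water with methylene blue. Embryos of each species were taken at 4, 10, 15, 18, 20, 22, 26 and 30 somites (somite stage, ss), and RC embryos also at 37ss, a stage without an AC counterpart. Each group held 3 embryos, with the exception of RC at 4ss, which held 2. The AC embryos compared at 26ss carry 27 somites in their labels. All embryos of a species came from the same egg clutch, so that a difference between the species cannot be told apart from a difference between the clutches, and the spread between embryos is that of siblings.

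Chondroitin sulfate is a long chain of alternating glucuronic acid and N-acetylgalactosamine. It is built in the Golgi on a short linker attached to the core protein of a proteoglycan, sulfated, and then carried to the cell surface and the extracellular matrix. The synthase chsy1 adds both kinds of sugar to the growing chain and works in complexes with related polymerizing proteins. Chondroitin sulfate proteoglycans are major components of cartilage, and they also line the routes of migrating neural crest cells, which in fishes give rise to the cartilage of the head and to pigment cells. In humans, loss of CHSY1 function causes a skeletal syndrome of the limbs, and in zebrafish chsy1 acts in the developing inner ear.

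Between 17619762 and 27454591 reads per embryo (median 22579546) were counted on genes. Of these, 934 to 3052 reads fell on chsy1, which puts the counting error of its level at 1.81% to 3.27% in an embryo. Of the marker genes listed for tissues of a whole embryo, 8 carried a name here, and 7 of these had a mean of at least 10 normalized counts in every group. The first principal component of all genes tested held 39.3% of the variance of log2 values, and its score was in general higher at later stages. In whole embryos, fewer cells that express chsy1 and less chsy1 RNA per cell cannot be told apart.

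In AC, chsy1 was highest at the start of the series. The 3 AC embryos at 4ss held 2876, 2762 and 2551 normalized counts, a mean of 2729.8 ± 164.9 (SD, n = 3). Those at 10ss held 2847, 1684 and 1758, a mean of 2096 ± 651 (SD, n = 3). Replicate 1 at 10ss was therefore as high as the embryos at 4ss, and the other 2 lay far below them. The coefficient of variation at 10ss was 31.1%, the highest of the 17 groups, where the counting error of the 3 embryos was 1.92% to 2.53%.

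From 15ss on, AC embryos held less chsy1, with 1 excursion. At 15ss the embryos had 1226, 1416 and 1533 normalized counts (mean 1392 ± 155, SD, n = 3). At 18ss they had 1097, 817.8 and 1224 (mean 1046 ± 208, SD, n = 3), including the lowest embryo of all 50. Levels at 20ss were 1172, 1331 and 1276 (mean 1259.5 ± 80.8, SD, n = 3). The highest embryo at 18ss lay just below the lowest at 15ss, and the ranges of 18 and 20ss overlapped. At 22ss the embryos had 1842, 1212 and 1616 (mean 1557 ± 319, SD, n = 3), 2 of them above every AC embryo from 15ss to 20ss. The series then ended with 1146, 880.7 and 1086 at 26ss (mean 1038 ± 139, SD, n = 3) and with 1123, 955.6 and 976.2 at 30ss (mean 1018 ± 91.4, SD, n = 3). None of the 6 embryos at 26 and 30ss reached the lowest embryo of 22ss.

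In RC, chsy1 started lower and moved within a narrower range. The 2 RC embryos at 4ss held 1669.8 and 1665 normalized counts (mean 1667 ± 3.62, SD, n = 2). At 10ss the values were 1541, 1628 and 1309.9 (mean 1493 ± 164.6, SD, n = 3), and at 15ss 1281, 1237 and 1298 (mean 1272 ± 31.5, SD, n = 3). The close match of the 2 embryos at 4ss is tighter than their counting error of 2.30% and 2.58%, so this SD understates the error of the group.

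The later RC stages lay close together. Embryos at 18ss held 1287, 1448 and 1303 (mean 1346 ± 89.1, SD, n = 3), those at 20ss 1235, 1181 and 1164 (mean 1193 ± 37.2, SD, n = 3), and those at 22ss 1161, 1219 and 1068 (mean 1149.7 ± 76.1, SD, n = 3). At 26ss the values were 968.4, 1299 and 1026 (mean 1098 ± 176, SD, n = 3), with replicate 2 well above the other embryos. At 30ss they were 1080.4, 863.4 and 980.3 (mean 974.7 ± 109, SD, n = 3), the lowest mean of the 17 groups. At 37ss they were 1073, 1067 and 940.2 (mean 1027 ± 75.1, SD, n = 3), within the spread of the RC embryos at 26 and 30ss.

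**Figure D1:**
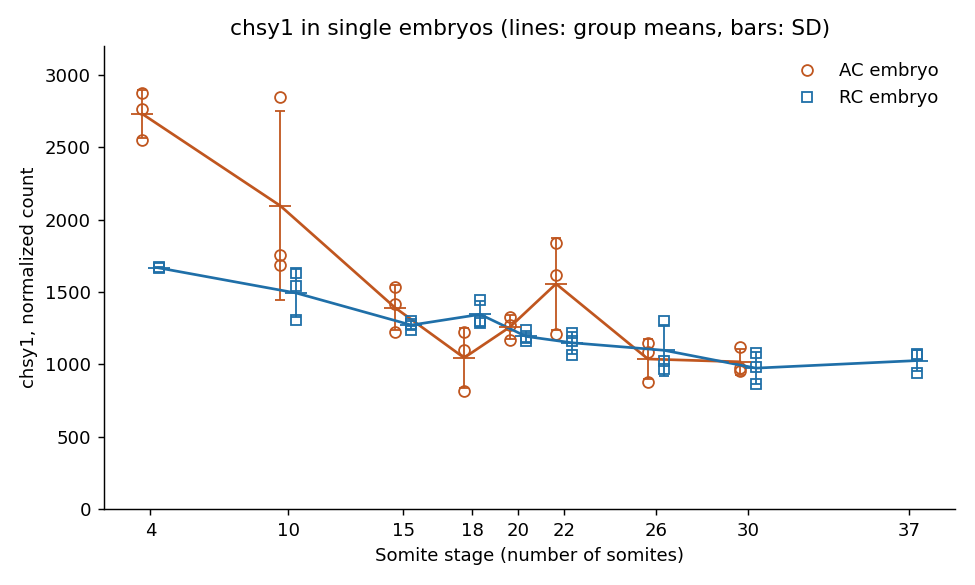
Normalized count of chsy1 (vertical axis) against somite stage (horizontal axis, number of somites) in single embryos of AC (circles) and RC (squares), with group means as lines and SD as bars (n = 3, and n = 2 for RC at 4ss). The AC embryos at 4ss lie between 2551 and 2876, above every RC embryo, while from 26ss on embryos of both species lie between 863.4 and 1299.

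Set in order of their means, the 17 groups ran from AC at 4ss (2729.8) and AC at 10ss (2096) through RC at 4ss (1667), AC at 22ss (1557) and RC at 10ss (1493) down to AC at 26ss (1038), RC at 37ss (1027), AC at 30ss (1018) and RC at 30ss (974.7). Of the 16 pairs of neighbours in this order, 15 had overlapping ranges. The exception was AC at 10ss against RC at 4ss, where the lowest AC embryo (1684) was above the highest RC embryo (1669.8) by less than the counting error. The order of neighbouring groups is therefore not fixed by these embryos, whereas the distance from AC at 4ss to the groups of 26ss and later is many times their SD.

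The species difference of chsy1 changed size and sign along the series. On the scale of log2(normalized count + 1), RC minus AC was -0.71 ± 0.17 (SE) at 4ss, a level 1.63-fold higher in AC, and -0.45 ± 0.16 at 10ss, 1.37-fold higher in AC. At 15ss it was -0.12 ± 0.16. At 18ss the difference pointed the other way, 0.38 ± 0.16, a level 1.30-fold higher in RC. It was -0.08 ± 0.16 at 20ss and -0.42 ± 0.16 at 22ss, again with the higher level in AC. At 26 and 30ss it was 0.08 ± 0.16 and -0.07 ± 0.16. The embryos of the species did not overlap at 4, 10 and 18ss, 3 of the 8 stages, and overlapped at the other 5, including 22ss.

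These values are those by which the gene was chosen, and nothing is read from their size. Across all 21123 genes tested, the ranges of AC and RC embryos were apart for 46.9% of genes at 4ss, for 27.8% of genes at 10ss and for 42.8% of genes at 18ss. At the stages where the chsy1 ranges overlapped, this share ran from 38.9% (22ss) to 42.2% (20ss). The share of genes called different between the species (Benjamini-Hochberg adjusted p under 0.05 with a change of more than 1.5-fold) ran to 25.4% (4ss), 14.1% (10ss), 20.9% (18ss) and 10.8% (22ss). The chsy1 difference at 4ss lay at percentile 12.6 of all genes, counted from the most AC-biased, and that at 18ss at percentile 74.0. Quantile normalization moved the median difference of all genes at 4ss by -0.16. It moved the chsy1 difference at 4ss the other way, from -0.71 to -0.51. The difference at 10ss leaned on the high AC embryo, and without AC replicate 1 at 10ss it was -0.21. The difference at 18ss leaned on the low AC embryo, and without AC replicate 2 it was 0.21. At 4ss, where chsy1 was lower in RC, 3 of the 8 named markers were called, all of them higher in RC. The neural crest factor foxd3 had 551 to 1181 normalized counts in RC and 85.8 to 228 in AC (log2 difference 2.38 ± 0.41 SE, limma, adjusted p = 2.40e-05). The entry named sox10, a crest factor, had 13.3 and 68.7 normalized counts in the 2 RC embryos. It was at 0 in the 3 AC embryos. The study describes paralogs of this factor in cichlids. Which paralog the entry holds was not determined, so the 0 in AC is that of this entry alone. The heart factor nkx2.5 had 26.6 to 84.6 normalized counts in RC and 2.83 to 17.2 in AC (limma, adjusted p = 0.00686). The crest factor tfap2a was not called at 4ss (-0.18 ± 0.16 SE, limma, adjusted p = 0.395). Summed, the named crest markers overlapped at this stage, at 6212 to 7954 in AC and 5819 to 8289 in RC. Most of this sum was tfap2a, at 6126 to 7725 in AC and 5255 to 7039 in RC. The sum thus does not show the differences of foxd3 and sox10. The summed level of the 8 markers at 4ss was 14539 to 14952 in AC and 11504 to 13164 in RC. After tfap2a, the endoderm factor sox32 had the highest mean of the 8 at 4ss. Its ranges overlapped, at 1505 to 6876 in AC and 1000 to 3947 in RC (log2 difference -0.89 ± 0.79 SE, limma, adjusted p = 0.408). The summed level of the 8 markers at 18ss was 7079 to 8418 in AC and 8042 to 8600 in RC. The part of the tissue markers in the chsy1 difference was not tested. RC reads were mapped to the AC genome, and the part of this step in the levels of chsy1 was not tested.

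**Figure D2:**
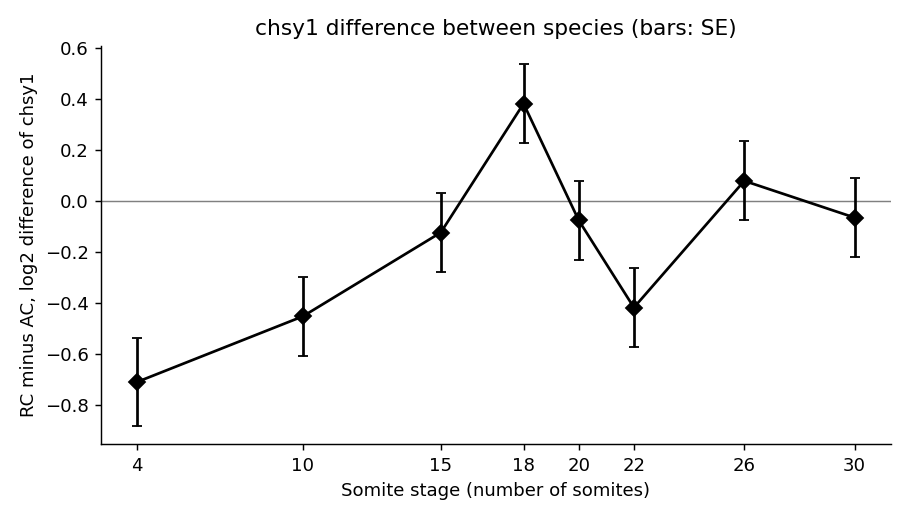
Difference of chsy1 between the species, RC minus AC on the log2 scale (vertical axis), at the 8 shared somite stages (horizontal axis, number of somites), with bars of 1 SE of the fit. Negative values mean a higher level in AC. The points run from -0.71 at 4ss to 0.38 at 18ss, dip to -0.42 at 22ss and lie within 1 SE of 0 at 26 and 30ss.

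Embryos of a given somite number need not be equally advanced in the rest of their expression. On the first principal component, on which later stages score higher, AC embryos at 4ss lay between -226 and -199 and RC embryos of that stage between -161 and -149. The AC group with the highest mean of chsy1 thus had the scores farthest from later stages. Within that group, the embryo with the least chsy1 (2551) had the lowest score (-226). At 10ss the species shared a range, with AC between -102 and -84.8 and RC between -131 and -77.7, and the AC embryo with 2847 normalized counts had the score farthest from 4ss of its group (-84.8). At 18ss AC embryos lay between 5.88 and 22.1 and RC embryos between -58.8 and -9.04, so that the species with less chsy1 was the one farther along the component. At 22ss AC lay between 43.9 and 70.8 and RC between 31.7 and 49.3. Here AC reached farther along the component and had the higher mean of chsy1 (1557 against 1149.7). By embryo, AC scores of 43.9, 55.4 and 70.8 went with 1616, 1842 and 1212 normalized counts. The AC embryo with the highest score thus had the least chsy1 of its group, within the RC range of 1068 to 1219. All 3 AC embryos at 10ss were farther along the component than both RC embryos at 4ss and were above them in chsy1. The lowest of the 3 (1684) was above the highest RC embryo (1669.8) by less than the counting error. The part of this position in the species difference of chsy1 was not tested.

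**Figure D3:**
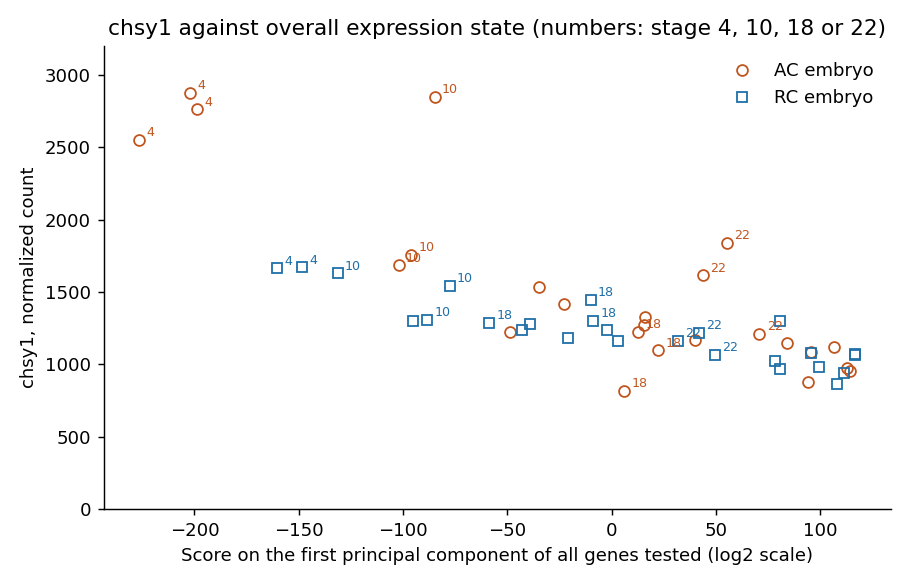
Normalized count of chsy1 (vertical axis) against the score of each embryo on the first principal component of all genes tested (horizontal axis), for AC (circles) and RC (squares), with the stage written beside embryos of 4, 10, 18 and 22ss. Low scores go with early stages. AC embryos at 4ss (scores -226 to -199) and AC replicate 1 at 10ss (score -84.8) stand above the other embryos, the highest of which (AC at 22ss) has 1842 normalized counts.

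Because AC forms fewer somites than RC, embryos were also set side by side at near shares of the final somite number. RC minus AC on the log2 scale was -0.68 ± 0.16 (SE) for RC at 15ss against AC at 10ss, -0.04 ± 0.16 for RC at 18ss against AC at 15ss, and 0.15 ± 0.16 for RC at 22ss against AC at 18ss. It was -0.21 ± 0.16 for RC at 26ss against AC at 20ss and -0.66 ± 0.16 for RC at 30ss against AC at 22ss. For the last stages, RC at 37ss against AC at 30ss, it was 0.01 ± 0.15. Under this pairing the AC level was higher by the most for AC at 10ss and at 22ss, and by less for AC at 20ss (-0.21 ± 0.16). Of all the pairs, those of AC at 10ss and at 22ss were the least close in share of the final somite number, with RC at the larger share. The final stages of both species were level within the SE. The pairs reuse the AC embryos of the comparison by somite number, so they are not independent of it. In every pair the RC embryos had more somites, and chsy1 in RC was in general lower at later stages. The part of this offset in the differences was not tested. The first AC stage, at which chsy1 was highest, was not part of these pairs. RC minus AC at 4ss, the first stage of both species, was -0.71 ± 0.17 (SE).

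Averaged over the species, the level of chsy1 depended on stage. This mean over both species is a separate quantity from the difference by which the gene was chosen. A moderated F-test in limma over the 7 steps between stages gave an adjusted p of 9.29e-10 for chsy1, and 75.1% of the 21123 genes passed the same test, so that dependence on stage is the common state of genes here. The F-test was added after the values had been seen. Its adjusted p ranged from 1.59e-10 to 3.28e-06 over the alternatives in which it was computed.

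By single steps, no change of chsy1 was called. The averaged log2 change was -0.29 ± 0.12 (SE) from 4 to 10ss (limma, adjusted p = 0.0416) and -0.39 ± 0.11 from 10 to 15ss (limma, adjusted p = 0.0186), both smaller than the threshold of 1.5-fold. It was -0.17 ± 0.11 from 15 to 18ss (adjusted p = 0.531), 0.06 ± 0.11 from 18 to 20ss (adjusted p = 0.911) and 0.12 ± 0.11 from 20 to 22ss (adjusted p = 0.654). From 22 to 26ss it was -0.32 ± 0.11 (adjusted p = 0.128) and from 26 to 30ss -0.09 ± 0.11 (adjusted p = 0.981). Of all genes, 24.6% were called from 4 to 10ss, 5.38% from 10 to 15ss and 1.88% from 22 to 26ss. The step from 10 to 15ss was -0.22 without AC replicate 1 (adjusted p = 0.189, in a range of 0.00530 to 0.189 over the alternatives), and the step from 4 to 10ss was -0.16 under quantile normalization (adjusted p = 0.266, in a range of 0.00190 to 0.266).

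Taken from end to end, the averaged change from 4 to 30ss was -1.10 ± 0.12 (SE) on the log2 scale, a level 2.15-fold lower at 30ss. In AC the log2 change was -1.42 ± 0.16 (2.68-fold lower) and in RC -0.78 ± 0.17 (1.72-fold lower). The AC steps were -0.42 from 4 to 10ss, -0.55 from 10 to 15ss, -0.43 from 15 to 18ss, 0.29 from 18 to 20ss, 0.29 from 20 to 22ss, -0.57 from 22 to 26ss and -0.02 from 26 to 30ss, each with an SE of 0.16. The RC steps stayed between -0.23 (10 to 15ss) and 0.08 (15 to 18ss), with an SE of 0.17 for the first and 0.16 for the others. AC thus came down by 18ss and again after 22ss, while the fall in RC (-0.78 from 4 to 30ss) was spread over smaller steps. The steps of each species hold the values of the rule and were not tested.

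Past the range shared with AC, chsy1 in RC was level. From 30 to 37ss the log2 change was 0.08 ± 0.15 (SE, limma, adjusted p = 0.999), and the ranges of the 3 embryos at each stage overlapped. The step was -0.035 without RC replicate 2. Of all genes tested, 0.303% were called in this comparison.

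Few other genes of chondroitin sulfate metabolism carry a name here, since symbols were taken from the gene tables of the study, which hold genes with a neural crest, pigment or skeletal annotation. Of the genes that build the linker, sulfate the chain, supply its activated precursors or make hyaluronan, none was among them, and of the polymerizing enzymes chsy1 alone. The named genes nearest to it by role numbered 4: dcn (decorin, a small proteoglycan that carries a chondroitin or dermatan sulfate chain and binds collagen), ids (a lysosomal sulfatase that degrades dermatan and heparan sulfate), and sulf1 and sulf2a (extracellular sulfatases that edit heparan sulfate). The study chose these and all other named genes on the same embryos, so their counts are not independent evidence. All 4 were called between the species at 1 or more of the 8 stages, where 54.3% of all genes were. The species difference varied with stage in 3 of the 4, ids, sulf1 and sulf2a, and in 24.6% of all genes (moderated F-test, adjusted p under 0.05).

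These 4 genes were called at 1 stage each, ids and sulf2a at 4ss, sulf1 at 15ss and dcn at 18ss. At 4ss sulf2a was lower in RC, at 282 to 371 normalized counts in the 2 embryos against 640 to 1013 in the 3 AC embryos (log2 difference -1.32 ± 0.20 SE, limma, adjusted p = 4.32e-06). At the same stage ids was higher in RC, at 295 to 361 against 133 to 210.2 (1.03 ± 0.16, adjusted p = 3.63e-06). At 15ss sulf1 was higher in RC, at 2834 to 3152 against 1049 to 1980.3 (1.02 ± 0.17, adjusted p = 2.69e-05). At 18ss dcn was lower in RC, at 654 to 1730.3 against 2227 to 2361 (-0.91 ± 0.34, adjusted p = 0.0384), a call that 6 of the 17 alternatives did not keep, among them the omission of RC replicate 1 (-0.46) or of any AC replicate. In AC dcn had a mean of 28.7 ± 1.77 normalized counts at 4ss and 5597 ± 390 at 30ss (SD, n = 3 each), and in RC the means were 34.3 ± 23.6 (n = 2) and 4752 ± 370 (n = 3). This carrier of chondroitin chains was thus lowest at the stage at which the synthase was highest.

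Among genes that feed or serve the Golgi enzymes, 2 were named, and both were called at 1 stage. The gene gfpt1 encodes the rate-limiting enzyme of the hexosamine pathway, from which the amino sugars of these chains derive. It was lower in RC at 15ss (a stage at which 23.3% of all genes were called), at 4661 to 6564 normalized counts against 8433 to 9396 (-0.68 ± 0.12 SE, adjusted p = 3.73e-05). The gene tmem165 encodes a Golgi membrane protein needed for manganese supply, the cofactor of many glycosyltransferases. It was higher in RC at 18ss, at 1242 to 1619 against 815 to 934 (0.68 ± 0.11, adjusted p = 1.71e-05). Below the fold threshold, the RC minus AC difference of tmem165 was also positive at 10ss (0.38 ± 0.11, limma, adjusted p = 0.0122) and 22ss (0.54 ± 0.11, adjusted p = 0.000696). The same held at 20ss (0.45, adjusted p = 0.00365), 26ss (0.34, adjusted p = 0.0332) and 30ss (0.37, adjusted p = 0.0188). It was 0.01 ± 0.12 at 4ss (adjusted p = 0.974) and 0.14 ± 0.11 at 15ss (adjusted p = 0.351). The difference of chsy1 took either sign over the stages and was negative at 10 and 22ss. The call of gfpt1 was lost without RC replicate 3 (-0.54) and that of tmem165 without RC replicate 1 (0.58). From 4 to 10ss the averaged log2 changes of tmem165 (-0.29 ± 0.08, adjusted p = 0.00492) and gfpt1 (0.38 ± 0.09, adjusted p = 0.000650) were below the fold threshold, and that of tmem165 had the size of the chsy1 change.

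Of 11 genes of the matrix and its assembly, gpc4 (glypican, a heparan sulfate proteoglycan of the cell surface) was called between the species most often. It was lower in RC at 4ss (-0.94 ± 0.18 SE, adjusted p = 9.93e-05), 10ss (-0.87 ± 0.16, adjusted p = 0.000116), 15ss (-1.47 ± 0.16, adjusted p = 9.22e-09) and 20ss (-0.86 ± 0.16, adjusted p = 0.000169, with 11.9% of all genes called), but 0.10 ± 0.16 at 18ss (adjusted p = 0.674). At 18ss the ranges of gpc4 overlapped, with 3228 to 4056 normalized counts in RC embryos and 2781 to 4019 in AC embryos. Both gpc4 and chsy1 had AC-biased values at 4 and 10ss. They parted at 15 and 20ss, where chsy1 was at -0.12 and -0.08. At 18ss both values were above 0, that of chsy1 at 0.38 ± 0.16 without overlap of the embryos, as for 42.8% of all genes. These chsy1 values are those by which the gene was chosen. The fibronectin gene fn1a was higher in RC at 15ss (1.24 ± 0.28, adjusted p = 0.000781) and 18ss (1.65 ± 0.28, adjusted p = 2.75e-05). The gene and1, for an actinodin of the fibres of the fin fold, was lower in RC at 30ss (-1.86 ± 0.24, adjusted p = 2.61e-07, with 10.4% of all genes called), with 123 to 164 normalized counts against 321 to 769 in AC.

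Cartilage formation was represented by 3 named genes. At 4ss nkx3-2, a transcription factor of the jaw joint, was higher in RC (1.75 ± 0.39 SE, limma, adjusted p = 0.000677), at 54.6 to 55.4 normalized counts against 4.71 to 32.5. These levels were low, as its means at 30ss were 566 in RC and 736 in AC. Also higher in RC at 4ss was sox9b, a regulator of chondrocytes and neural crest (1.09 ± 0.28, adjusted p = 0.00267). The sox9b call was lost without RC replicate 3 (0.76), where RC at 4ss is 1 embryo that is assumed to vary like the other groups. At 22ss the cartilage collagen gene col11a2 was lower in RC (-1.50 ± 0.40, adjusted p = 0.00852), at 263 to 555 normalized counts against 823 to 1826. The col11a2 call was lost without RC replicate 1 (-1.23) and without AC replicate 2 (-1.13), the AC embryo with the highest score at this stage and the lowest chsy1. Counting the pathway, sugar supply, matrix and cartilage genes together, 14 of 20 were called at 1 or more stages (54.3% of all genes), and the species difference varied with stage in 10 of 20 (24.6% of all genes). The study's cartilage and craniofacial category holds 104 genes beside chsy1, among them 13 of these 20. Of the 104, 98 were called at 1 or more stages and 55 varied with stage. Those genes entered the category as genes that differ between these embryos.

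Between 4 and 10ss, where the chsy1 change was not called, many of the matrix and cartilage genes rose. Of the 20 genes, 11 rose in the average of both species, where 18.2% of all genes were called higher, and 1 fell, where 6.42% were called lower. Of the calls over all genes 73.9% were increases, and 56.4% under quantile normalization, which moved the median change of all genes by -0.18 and lost the call of and1. The largest log2 changes were those of tnc (tenascin C, 3.56 ± 0.26 SE, adjusted p = 2.46e-13), dcn (3.25 ± 0.25, adjusted p = 9.22e-13), nkx3-2 (2.26 ± 0.26, adjusted p = 9.69e-09) and col11a2 (2.01 ± 0.30, adjusted p = 1.18e-06). Increases were also called for loxl3b, a collagen cross-linking oxidase (1.83), sparc, a collagen-binding matrix protein (1.77), mmp14b, a membrane metalloproteinase (1.67), and1 (1.05), sulf1 (0.84), sulf2a (0.63) and fras1, a basement membrane protein (0.59). The call of fras1 was lost in 8 of the 17 alternatives, and that of sulf2a without RC replicate 3 (0.52, with 1 RC embryo left at 4ss) and without AC replicate 1 at 10ss (0.51). The gene that fell was fn1a (-1.80 ± 0.21, adjusted p = 7.85e-09). The median log2 change of the 20 genes was 0.74 and that of all genes 0.0083, while chsy1 stood at -0.29 ± 0.12 and percentile 25.0 of all genes.

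**Figure D4:**
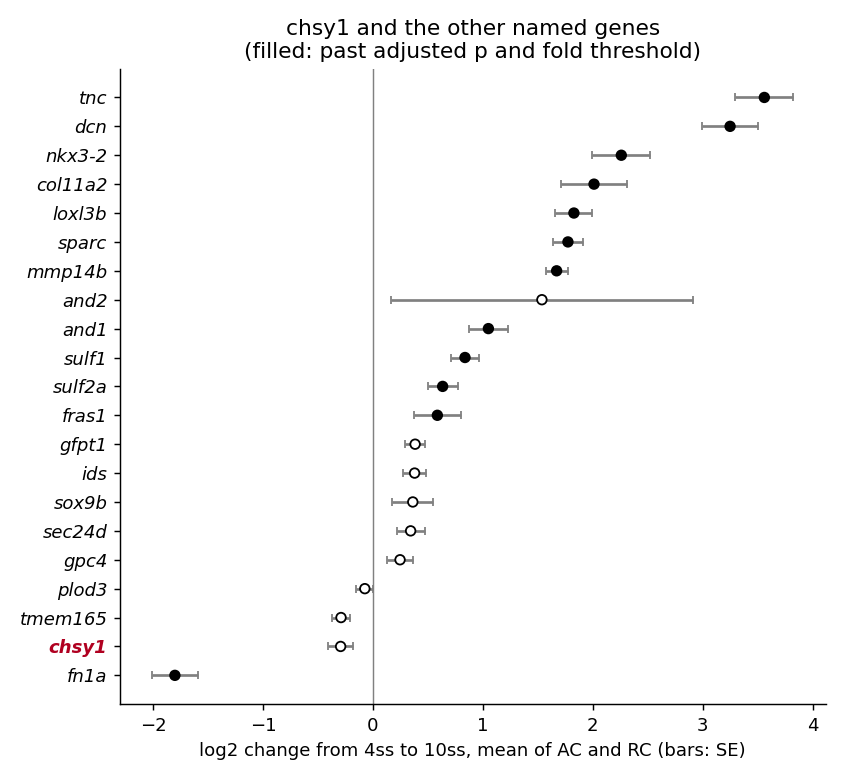
Log2 change from 4 to 10ss, averaged over AC and RC (horizontal axis), for chsy1 and the 20 named genes of the pathway, sugar supply, matrix and cartilage (vertical axis, 1 row per gene), with bars of 1 SE. Filled points passed the adjusted p and the fold threshold. Filled points lie to the right of 0 for 11 genes and to the left for fn1a, and chsy1 (-0.29) is an open point left of 0.

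After 10ss fewer of these genes moved. From 10 to 15ss, the step with the lowest adjusted p of chsy1, 4 of the 20 rose (4.75% of all genes were called higher) and 2 fell (0.625% were called lower). The share of increases among all calls of this step was 88.4%, and 73.6% under quantile normalization. The rises were in dcn (1.69), nkx3-2 (0.92), tnc (0.91) and loxl3b (0.78), and the falls in col11a2 (-0.99) and fn1a (-0.86). Of these calls, that of dcn alone was kept in all 17 alternatives. Those of tnc and col11a2 were lost in 4 each, nkx3-2 in 3, fn1a in 2 and loxl3b in 1. From 30 to 37ss in RC, and1 alone was called (1.15, adjusted p = 0.0102), and it was not called in any of the 3 fits that left out an RC replicate.

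The genes most like chsy1 in their pattern were found by Pearson's r of log2 means over the 17 groups. Among 13472 genes with a mean of at least 100 normalized counts, 137 had an r above 0.9 with chsy1 and 134 an r below -0.9, and 169 carried a symbol. The groups share their libraries and most of the pattern is the course over stages, so r is a description. The named genes with the highest r were nolc1 (0.94, a nucleolar protein), prdm1a (0.94, a transcription factor of the neural crest), mych (0.93, a Myc family factor), usp7 (0.90, a deubiquitinase), pak1 (0.89, a kinase of the cytoskeleton) and sox32 (0.89, an endoderm factor of fishes). The lowest were those of itga8 (-0.92, an integrin subunit), wnt5a (-0.89, a secreted ligand) and cnp (-0.89). Over all genes the highest r was that of ENSACLG00000002543 (0.98), followed by ENSACLG00000009265 (0.96), and the lowest were those of ENSACLG00000010574 and ENSACLG00000012409 (both -0.95), none of which carries a name here.

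Of these genes, prdm1a lies in the study's neural crest set and was taken as an example by its r over the groups. In AC its mean was 2295 ± 407 normalized counts at 4ss, 680 ± 186 at 18ss and 933 ± 187 at 22ss (SD, n = 3 each). In RC its mean was 1274 ± 115.9 at 4ss (SD, n = 2), 764 ± 33.8 at 18ss and 768 ± 74.0 at 22ss (SD, n = 3 each). As for chsy1, the AC level at 4ss was above that of RC, and the AC means at 18 and 22ss differed by less than the sum of their SDs.

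**Figure D5:**
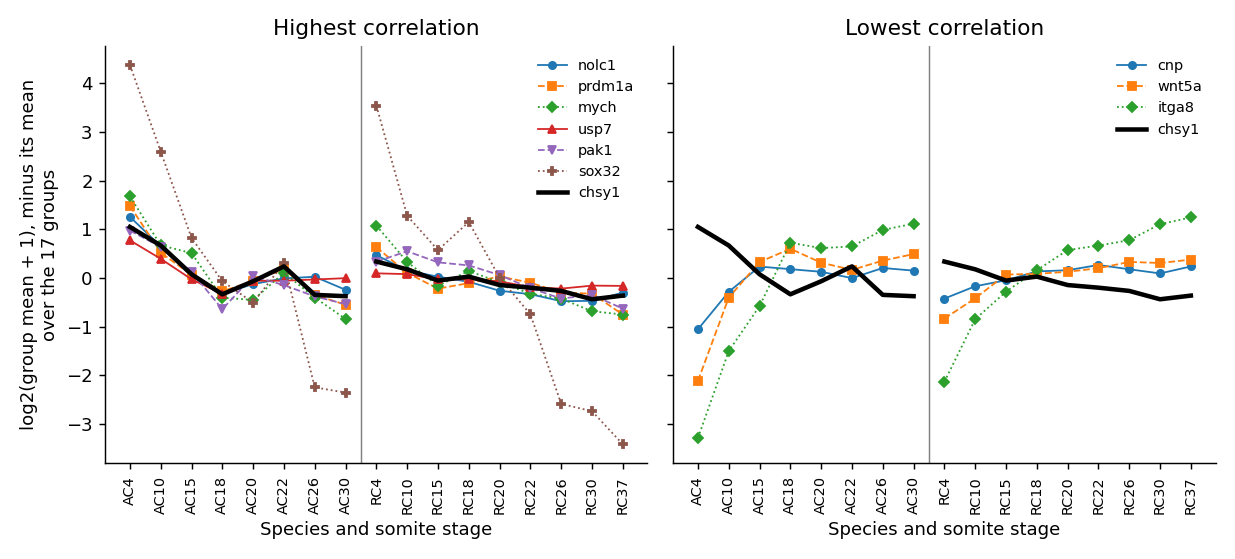
Log2 of group means plus 1, centred on the mean over the 17 groups (vertical axis), by species and stage (horizontal axis, AC to the left and RC to the right of the vertical line), for the 6 named genes with the highest correlation to chsy1 (left panel) and the 3 with the lowest (right panel), with chsy1 as the thick line. The AC curves of chsy1 and of all 6 genes of the left panel have their highest point at 4ss and a mean at 22ss above that at 18ss. These genes were picked by their r with chsy1 over the same means. In the right panel itga8 (r = -0.92) rises where chsy1 comes down.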

How the data were processed

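RNA of 50 single whole embryos was sequenced by the authors from stranded, polyA-enriched libraries. Per the study's methods, they trimmed reads with TrimGalore 0.6.6, mapped those of both species to the AC genome fAstCal1.2 (Ensembl 105) with STAR 2.7.1a, counted uniquely mapped reads per gene and scaled the counts by the median of ratios of DESeq2 1.34.0. The deposited signal values are these normalized counts. In each embryo 100% of values above 0 were whole reads divided by 1 factor (tolerance 0.01), which gave the reads. The 17 columns of group means and the tables of lncRNAs and transposable elements were not used. Of 28001 entries, 1239 were 0 in every embryo.

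Values were analysed as log2(normalized count + 1) in limma 3.58.1 (R 4.3.3) with a variance trend, on the 21123 genes that reached 10 normalized counts in 2 or more of the 47 embryos of 4 to 30ss. Genes expressed at 37ss only were thereby left out. The model held 16 group means, and 17 for RC at 37ss. Adjusted p-values follow Benjamini-Hochberg within a comparison, and calls required an adjusted p under 0.05 together with a change of more than 1.5-fold. The model was tested on simulated data. Sibling embryos served as replicates. No pair of embryos of a group was alike within counting noise (chi-square per degree of freedom 9.12 to 94.0 in 49 pairs).

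The gene and the lists were chosen with earlier results of these data known. The sugar supply and matrix lists were added after the files were opened. Named were chsy1, list members called at 4 or more stages, the 2 members per list with the largest called difference, and the 6 and 3 named genes with the highest and lowest r. The other list members (sox9b, sparc, fras1, tnc, loxl3b, mmp14b, and2, plod3, sec24d) were named after their values were seen. Symbols for 199 genes come from the study's supplementary tables. No sequence is shown, since no file used here holds one. Alternatives were pseudocounts of 0.1 and 10, no filter, quantile and TMM scaling, edgeR 4.0.16 and DESeq2 1.42.0 on the reads, a fit of the compared groups alone, no fold threshold, a replicate block and the omission of each replicate, and for r Spearman's rho and r over embryos. The omission of AC replicate 1 at 10ss or AC replicate 2 at 22ss alone was added after the values were seen.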

Additional observations from a re-analysis of the deposited data

Results flagged for a closer look

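The species difference of 10 of the 20 named genes beside chsy1 differed between stages in a moderated F-test of limma over 7 contrasts. The study chose these genes on the same embryos, and 24.6% of all genes passed the same test. The adjusted p was 4.18e-05 for and1, 0.000275 for gpc4, 0.00137 for sulf2a and 0.00180 for gfpt1. It was 0.0118 for ids, 0.0144 for fn1a, 0.0183 for sulf1, 0.0202 for nkx3-2, 0.0289 for sec24d (a coat protein of vesicles that carry matrix proteins from the endoplasmic reticulum) and 0.0366 for tmem165. The size of the differences shows where the stages parted: RC minus AC of and1 was 0.86 at 4ss and -1.86 at 30ss, and that of gpc4 was -1.47 at 15ss and 0.10 at 18ss. For sec24d it was -0.45 at 10ss and 0.49 at 18ss, and neither value passed the fold and p thresholds together. The result for tmem165 had an adjusted p of 0.0539 in edgeR and 0.0609 with TMM scaling, and ranged up to 0.194 over the alternatives. Of 10 results, those of and1, gpc4, sulf2a and gfpt1 passed in every alternative run.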

How the results depend on the processing

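The chsy1 difference at 4ss was -0.51 under quantile normalization, and that at 10ss was -0.21 without AC replicate 1. Without RC replicate 1 or 3, RC at 4ss was 1 embryo, assumed to vary like the other groups. Leaving out replicates gave ranges of -0.76 to -0.67 at 4ss, -0.59 to -0.21 at 10ss, 0.21 to 0.50 at 18ss and -0.59 to -0.29 at 22ss, while the values at 26ss (-0.048 to 0.16) and 30ss (-0.14 to 0.019) took either sign. The averaged changes from 18 to 20ss (-0.047 to 0.11) and from 26 to 30ss (-0.17 to 0.012) and the RC change from 30 to 37ss (-0.035 to 0.15) also changed sign when a replicate was left out. No step of chsy1 was called in any alternative that kept the fold threshold, and without it the steps from 4 to 10ss (adjusted p = 0.0416) and from 10 to 15ss (adjusted p = 0.0186) passed. With only the compared groups fitted, 1 of the 4 pathway genes and 8 of the 20 genes were called, in fits with fewer embryos. The share of all genes called in these fits is not given here, so the lower counts are not read as particular to these genes. Of 41 calls of named genes, 16 were kept in all 17 settings and none reversed. By Spearman's rho and by r over 50 embryos, 4 of the 6 named genes most like chsy1 were kept each. With a replicate block, the difference at 4ss was -0.74 and the change from 4 to 10ss -0.28 (adjusted p = 0.0504). Most embryos of equal replicate number were not paired: of 23 pairs, 4 had a correlation of their deviations over 0.1 (median 0.0048). These 4 were at 4ss (0.11 and 0.10) and at 10ss (replicates 1 and 2, both 0.37). A shared effect of the replicate number at these stages alone was not tested. Every group rests on 3 embryos or fewer, and at 934 reads or more the counting error of chsy1 (at most 3.27%) was below the spread between embryos in each group but RC at 4ss and 15ss.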
